A study of Phaseolus vulgaris with 6 samples.

Results

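Hooked hairs of the common bean (Phaseolus vulgaris) were compared with one of its groups of trichomes, gene by gene, in 4 RNA sequencing libraries. The groups were BG, from hooked hairs, and AG, from trichomes, with 2 libraries each. A gene entered the comparison if it reached 1 TPM in at least 2 of these 4 libraries, which held for 20944 of the 27433 genes listed. TPM is a transcript level normalised for gene length and for the size of the library. All plants were of the genotype L88-57 and were raised in a growth chamber under normal conditions, so the groups shared genotype and growth conditions. The series holds 6 libraries, and the other 2, from a second group of trichomes named EPI, entered no contrast and served only in the estimate of the spread. The labels spell out neither code, and they do not say from which organ or position each kind of hair was taken, whether plants were pooled, or whether replicates were different plants. The p-values therefore reflect variation among these libraries, and that variation may be technical.

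Plant hairs are outgrowths of the epidermis, and a single leaf can carry several kinds. Glandular hairs make and store secondary compounds at their tip, while non-glandular hairs act mainly as a physical barrier. Hooked hairs have a curved, pointed tip, and on bean leaves they are known for catching the legs of small insects. The files identify genes by Phvul numbers with no symbol or product, so the labels of the hairs were not checked against marker genes, and no function is given to any gene below. Where a gene lay at the position of a RefSeq gene of assembly P. vulgaris v2.0, that gene's RefSeq symbol is given as a second name. Such a match was found for 89.8% of the tested genes.

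The libraries resembled their own replicate more than the other kind of hair. On the log2(TPM + 1) scale the AG libraries correlated at Pearson r = 0.920 with each other and the BG libraries at 0.926, while pairs of an AG and a BG library lay between 0.719 and 0.780. These values run across genes, which are not independent replicates. In these 4 libraries the listed genes held 920150 to 953098 TPM, and 19194 (AG library 1) to 20556 (BG library 1) genes reached 1 TPM. The number of mapped reads is unknown. The ratio of coverage to FPKM, which rises with depth if read lengths are equal, was 1.13 and 1.27 in the AG libraries and 1.47 and 1.18 in the BG libraries relative to the library of the series with the lowest ratio. AG library 1 stood apart in scale, with a median-of-ratios size factor of 0.832 against 1.02 to 1.08 in the other 3.

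Hooked hairs and AG trichomes differed at 1980 genes, of which 795 were higher and 1185 lower in hooked hairs. These were 9.45%, 3.80% and 5.66% of the tested genes (limma on log2(TPM + 1), Benjamini-Hochberg adjusted p under 0.05). The changes were large, with a median log2 change of 2.39 among the higher genes and -2.39 among the lower genes, and the smallest were 0.89 and -0.97. Among the called genes, 534 higher and 815 lower had an estimated change of at least 4-fold. At 16-fold or more these counts were 81 and 97, and at 64-fold or more 6 and 3. The test was against no change, and 0 genes passed limma's test against a fold change of 2. Called or not, changes of at least 4-fold were seen in 1223 higher and 1129 lower tested genes. Those counts were 136 and 107 at 16-fold and 9 and 3 at 64-fold. Thus 43.7% of the 4-fold rises and 72.2% of the 4-fold falls were called. The called 4-fold counts moved with the settings. They were 109 and 332 with a pseudocount of 10, and 200 and 364 without the filter on low values. With the AG and BG libraries fitted alone they were 879 and 936. Both BG libraries lay on the same side of both AG libraries for all 1980 called genes, and over all tested genes such separation held for 60.7%. In bulk tissue, fewer cells of a type and less RNA per cell cannot be told apart. The median log2 change over all tested genes was 0.19 as deposited and 0.04 after median-of-ratios scaling, so each change stands against that shift, and the scaled values called 545 higher and 1155 lower genes. Fewer libraries did not always give fewer calls, as the AG and BG libraries fitted alone gave 2442 against 1980. With a library left out, the remaining library of its group is assumed to vary like the other groups, an assumption that was not tested. Under that fit 0 genes passed limma's threshold after either BG library was left out (5127 genes at an unadjusted p under 0.05 without BG library 1, 4085 without BG library 2). The count was also 0 without AG library 1 (4276 genes at an unadjusted p under 0.05). Without AG library 2, 352 higher and 711 lower genes passed.

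**Figure D1:**
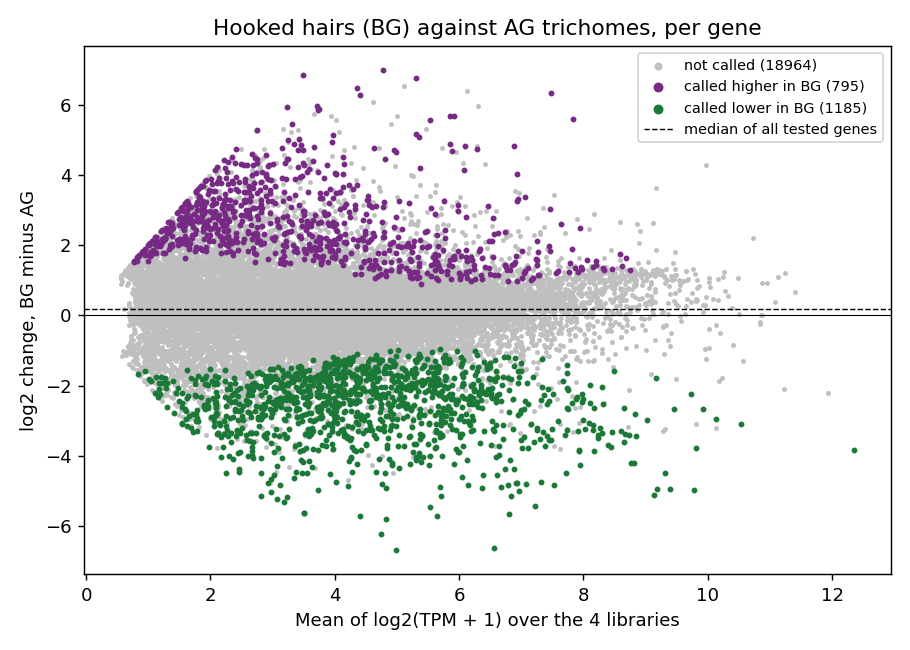
Each point is 1 of the 20944 tested genes, with its mean log2(TPM + 1) over the 4 libraries on the x axis and its log2 change, BG minus AG, on the y axis. The 795 genes called higher in BG (purple) and the 1185 called lower (green) flank the genes not called (grey), and the dashed line marks the median change of 0.19.

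The balance of directions depended on what was counted. Counting only whether the libraries overlapped, both BG libraries lay above both AG libraries in 7728 genes, 36.9% of those tested, and below both in 4991 genes, 23.8%. Thus 60.8% of the separated genes were higher in hooked hairs, and this share was 51.2% after median-of-ratios scaling. Among the called genes the share that was higher was 40.2%, and it was 32.1% after that scaling. With the AG and BG libraries fitted alone, on the deposited scale, it was 47.8%. A stricter reading asked that the lowest library of one group exceed the highest of the other by at least 4-fold on the log2(TPM + 1) scale. That gap was reached by 516 genes with higher BG libraries, 2.46% of those tested, and by 512 genes with lower ones, 2.44%. Of these, 348 and 475 also passed the test. After median-of-ratios scaling the gap was reached by 451 higher and 555 lower genes. A gap of 16-fold was left between the nearest libraries of 49 higher and 18 lower genes. Without AG library 1, which by construction can only widen a gap, the 4-fold gap was reached by 654 higher and 758 lower genes and the 16-fold gap by 105 and 52.

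Among called genes that averaged 10 TPM or more on their higher side, the largest rise was in Phvul.010G129700.v2.1 (LOC137818777, chromosome 10, 41082223 to 41083071, minus strand). It stood at 2.86 and 0.518 TPM in the AG libraries and at 169.4 and 554.1 TPM in the BG libraries. Both BG libraries were far above AG, although BG library 2 was itself well above BG library 1 (log2 change 6.99 ± 1.55 SE, limma adjusted p = 0.0437). Its EPI libraries, which enter that SE, held 371.2 and 10.7 TPM, and their part in it was not tested. With the AG and BG libraries fitted alone, limma's adjusted p was 0.0112. The call was lost in 12 of 19 alternatives, among them median-of-ratios scaling (adjusted p = 0.0595), while the log2 change stayed at 4.77 or more. The next was Phvul.003G218800.v2.1 (LOC137808056, chromosome 3, 44740686 to 44741628, plus strand), at 0.0783 TPM in AG library 1, listed at 0 in AG library 2, and at 109.4 and 129.9 TPM in the BG libraries. This gene was all but missing from AG trichomes and held a like level in both hooked hair libraries (log2 change 6.86 ± 1.23 SE, adjusted p = 0.0275). Its EPI libraries held 18.1 and 0.0342 TPM, and with the AG and BG libraries fitted alone limma's adjusted p was 0.0048. Its call was lost in 6 of the 19 alternatives. Every called gene lost its call in the test against a fold change of 2. The same held in the fits without BG library 1, BG library 2 or AG library 1, so such losses are part of each count given here and below.

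Among the genes that fell, the change was largest in Phvul.007G055800.v2.1 (LOC137829756, chromosome 7, 4657074 to 4663363, plus strand), at 869 and 117.6 TPM in the AG libraries and 5.95 and 0.395 TPM in the BG libraries. The AG libraries were both high but several-fold apart (log2 change -6.69 ± 1.12 SE, limma adjusted p = 0.0239). It was followed by Phvul.004G013500.v2.1 (LOC137836742, chromosome 4, 1530649 to 1538171, plus strand), whose AG libraries held 1477 and 583.4 TPM and whose BG libraries held 19.7 and 3.37 TPM. The lower AG library was here far above the higher BG library (log2 change -6.61 ± 0.86 SE, adjusted p = 0.0168). Without AG replicate 1, the log2 changes of these genes were -5.25 and -5.94. Their calls were lost in 5 and 4 of the 19 alternatives, in the same order.

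The genes with the highest levels in AG trichomes were mostly much lower in hooked hairs. Of the 6 genes with the highest mean TPM in AG, 4 passed the test, all with lower levels in BG. Choosing genes by their AG level favours that direction, and of the 61 tested genes with a mean of 1000 TPM or more over the 4 libraries 23.0% were called lower. Phvul.008G271700.v2.1 (LOC137826084, chromosome 8, 61570709 to 61571513) stood at 28189 and 13823 TPM in AG and at 1919 and 990.5 TPM in BG (log2 change -3.84 ± 0.81 SE, limma adjusted p = 0.0391). It lost its call in 12 of the 19 alternatives, among them median-of-ratios scaling (adjusted p = 0.0579) and the AG and BG libraries fitted alone (adjusted p = 0.0658). Phvul.004G097994.v2.1 (LOC137838367, chromosome 4, 16424089 to 16425398) held 9304 and 1498 TPM in the AG libraries but 237.4 and 60.1 TPM in those of BG (log2 change -4.95 ± 1.02 SE, adjusted p = 0.0373). Its call was lost in 8 of the 19 alternatives, among them median-of-ratios scaling (adjusted p = 0.0510) and the replicate block (adjusted p = 0.0540). Phvul.004G064800.v2.1 (LOC137836350, chromosome 4, 9431905 to 9432796) fell from 7313 and 3262 TPM to 218.2 and 110.5 TPM (log2 change -4.97 ± 0.65 SE, adjusted p = 0.0168). Phvul.002G196400.v2.1 (LOC137809566, chromosome 2, 36094319 to 36095316) fell from 5055 and 3711 TPM to 677 and 378.8 TPM (log2 change -3.09 ± 0.57 SE, adjusted p = 0.0299). Its call was lost in 7 of the 19 alternatives, and that of Phvul.004G064800.v2.1 in 4. In all 4 of these genes the groups of libraries did not overlap, as in all 1980 called genes, so this adds no support.

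The other 2 leading genes of AG were separated between the groups but did not pass. Phvul.005G027300.v2.1 (chromosome 5, 2539594 to 2540118) stood at 7935 and 8860 TPM in AG and 1253 and 2648 TPM in BG (log2 change -2.20 ± 0.78 SE, limma adjusted p = 0.118). Phvul.010G069100.v2.1 (LOC137818935, chromosome 10, 30206639 to 30208294) stood at 2477 and 10047 TPM in AG and 858 and 1554 TPM in BG (log2 change -2.11 ± 0.85 SE, adjusted p = 0.154). Its AG libraries differed from each other more than the lower of them differed from BG. By mean TPM in BG, Phvul.008G271700.v2.1, Phvul.005G027300.v2.1 and Phvul.010G069100.v2.1 still ranked 26, 12 and 43. The other leading genes of AG ranked 222 (Phvul.002G196400.v2.1), 1009 (Phvul.004G064800.v2.1) and 1129 (Phvul.004G097994.v2.1) there.

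Of the 6 genes with the highest mean TPM in BG, 0 passed limma's test, and the unadjusted p, from 0.0275 to 0.367, was under 0.05 in 1 of them. With 3.80% of all tested genes called higher, a count of 0 among 6 says nothing particular about these genes. Phvul.003G109100.v2.1 (LOC137839027, chromosome 3, 27561953 to 27562969) came first, at 5042 and 3914 TPM in BG against 157.6 and 324 TPM in AG (log2 change 4.29 ± 1.51 SE, adjusted p = 0.117). With the AG and BG libraries fitted alone it passed at the same log2 change (adjusted p = 0.0129). Its EPI libraries, which enter the spread of the main fit, were far apart at 3358 and 97.2 TPM. Their part in the missed call was not tested. The second was Phvul.004G075100.v2.1 (LOC137837309, chromosome 4, 12938447 to 12941701), at 2821 and 4807 TPM in BG and 1662 and 1516 TPM in AG (log2 change 1.21 ± 0.57 SE, adjusted p = 0.207). Phvul.009G211300.v2.1 (LOC137821582, chromosome 9, 31944574 to 31945245) reached 4650 and 2857 TPM in BG, and its AG libraries, at 252.3 and 2447 TPM, were far apart. Phvul.009G248700.v2.1 (LOC137821246, chromosome 9, 36932566 to 36934530) was also above AG in both libraries, at 3121 and 3441 TPM against 1039 and 2253 TPM.

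In the remaining 2 leading genes of hooked hairs the groups overlapped. Phvul.001G114100.v2.1 (LOC137813918, chromosome 1, 31246026 to 31247153) stood at 4498 and 2570 TPM in BG and 1438 and 3160 TPM in AG. Phvul.L001990.v2.1, on a scaffold (scaffold_84, 92081 to 93149), stood at 4412 and 1701 TPM in BG and 1204 and 1730 TPM in AG. In both, BG library 1 was the highest of the 4 and BG library 2 lay below AG library 2. Apart from the gene ranked first, then, the genes most abundant in hooked hairs were also abundant in AG trichomes, where they ranked between 18 and 49 by mean TPM. The top gene ranked 566 there.

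**Figure D2:**
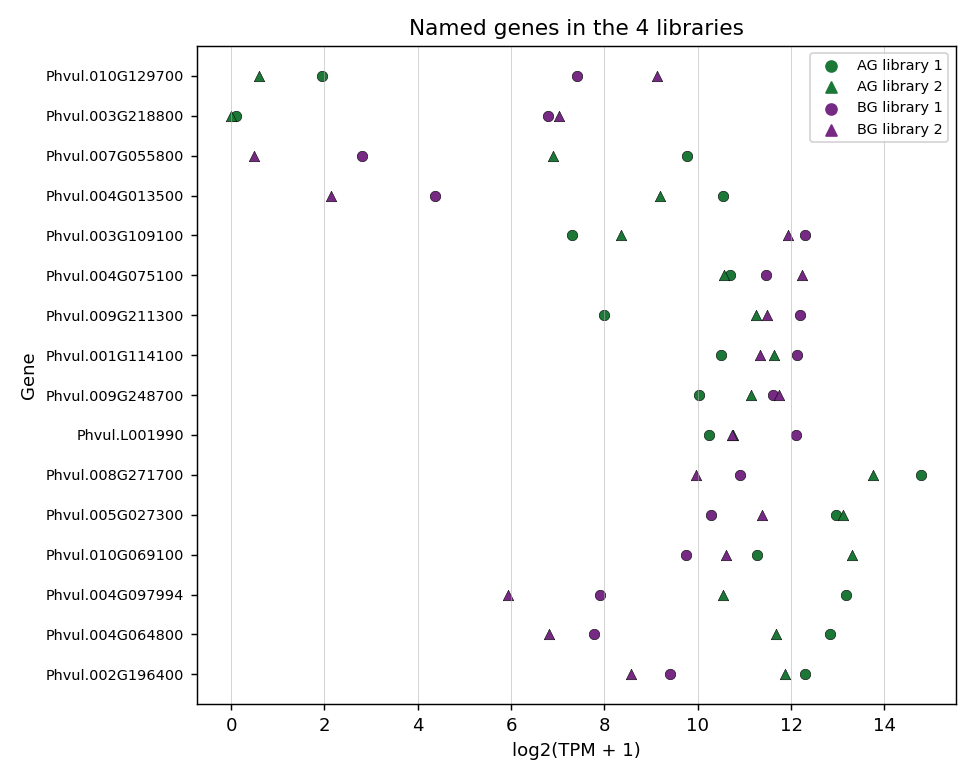
Level of the 16 named genes on the log2(TPM + 1) scale in each AG library (green) and BG library (purple), with circles for library 1 and triangles for library 2. From the top, 2 genes with the largest rises, 2 with the largest falls, the 6 most abundant in BG and the 6 most abundant in AG; all 6 of the last set have higher points for AG than for BG, while in the fourth and sixth genes of the BG set (Phvul.001G114100 and Phvul.L001990) the groups overlap.

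The transcript pool of AG trichomes was more concentrated in a few genes. The 10 most abundant genes of each AG library accounted for 8.69% and 6.16% of its listed TPM, and those of the BG libraries for 3.89% and 3.02%, so the groups did not overlap. For the top 100 genes the shares were 22.3% and 19.9% in AG against 15.5% and 14.7% in BG. Over the top 1000 genes they no longer separated, at 52.8% and 47.6% in AG and 46.4% and 48.3% in BG. The smallest two-sided p that an exact permutation test can give for such a share, with 2 libraries on each side, is 0.333. The called genes held very unequal parts of the pool. Those lower in hooked hairs made up 27.0% and 17.0% of the TPM of the AG libraries and 3.13% and 2.25% of the BG libraries, whereas those higher in hooked hairs made up 5.27% and 6.39% of the BG libraries and 1.20% and 1.29% of the AG libraries. These genes were called from the same values, so the shares describe their size and are not a further test.

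**Figure D3:**
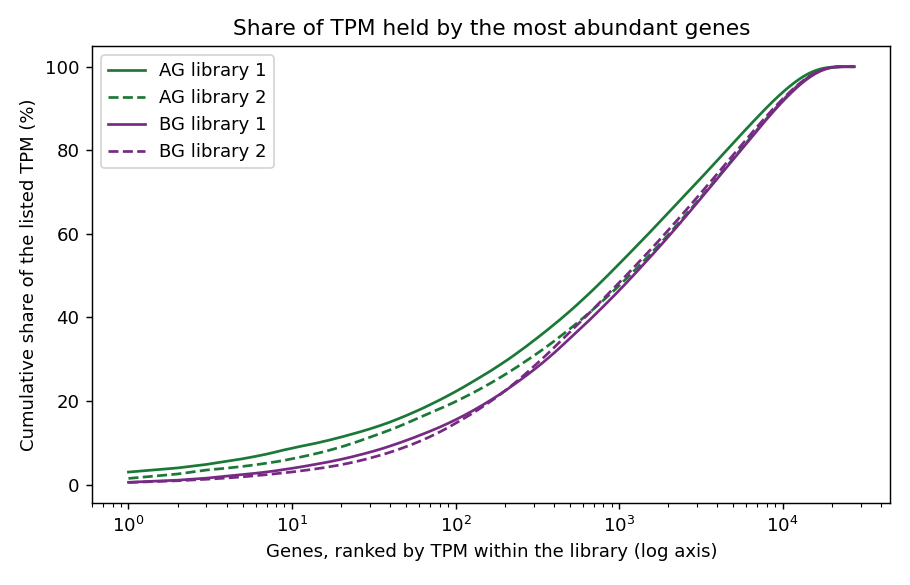
Cumulative share of the listed TPM (%) against the rank of genes by TPM within a library (log axis), for the AG libraries (green) and the BG libraries (purple; library 1 solid, library 2 dashed). The AG curves lie above the BG curves among the top 100 genes, and by the top 1000 genes AG library 2, at 47.6%, lies within the BG range.

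Called genes were spread unevenly over levels, and the direction turned with level. Below a mean of 3 TPM over the 4 libraries, 78 genes were called higher and 23 lower, 3.06% and 0.901% of that class. From 10 to 30 TPM, 231 were higher and 400 lower, or 3.29% and 5.71%. From 100 to 300 TPM the shares were 5.22% and 11.2%, from 300 to 1000 TPM 3.51% and 15.0%, and from 1000 TPM up 14 of 61 genes were lower and 0 higher. The separation of the libraries showed another picture between 300 and 1000 TPM, where 57.1% of 427 genes had both BG libraries above both AG libraries and 24.1% had both below. The median log2 change of that class was 0.64, against 0.19 over all tested genes. In this class most genes thus stood higher in hooked hairs without passing the test, while those that passed were mostly lower.

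**Figure D4:**
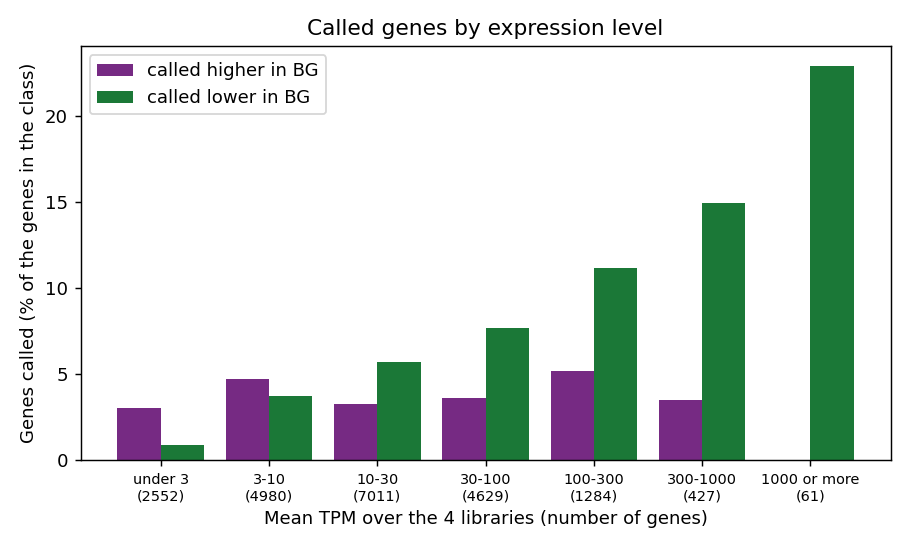
Share of genes called higher (purple) and lower (green) in BG, in % of the genes of each class of mean TPM over the 4 libraries; the number of genes in a class stands in parentheses. The share called lower grows from 0.901% below 3 TPM to 15.0% between 300 and 1000 TPM, while the share called higher stays between 3.06% and 5.22% in those classes.

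Replicates varied less than the groups did. The median absolute log2 difference between replicates was 0.42 in AG and 0.39 in BG, and that between the group means was 0.58. A difference of at least 4-fold separated the replicates in 659 genes (3.15%) in AG and 433 genes (2.07%) in BG. In the genes called lower, the median level was 53.2 and 40.4 TPM in the AG libraries and 9.53 and 7.00 TPM in the BG libraries. AG library 1 was above AG library 2 in 72.5% of these genes, against 33.7% of all tested genes, and BG library 1 was above BG library 2 in 71.1%, against 46.3%. In the genes called higher, the median level was 2.50 and 2.56 TPM in AG and 24.4 and 26.2 TPM in BG.

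More genes crossed the level of 1 TPM upward in hooked hairs than downward. A set of 787 genes stayed under 1 TPM in both AG libraries and reached it in both BG libraries, and 240 of them were called higher. The opposite held for 403 genes, of which 91 were called lower. These sets hold only genes with separated groups, which favours a call, so their counts are not to be read against the 3.80% and 5.66% called among all tested genes. With 10 TPM as the level to be reached, the numbers were 70 and 26. Listed at 0 in both AG libraries and at 1 TPM or more in both BG libraries were 86 genes, with a median BG mean of 3.39 TPM and a highest of 22.2 TPM. The reverse was seen for 20 genes, up to 24.3 TPM in AG. AG library 1 listed 4394 genes at 0, more than the 3449 to 3859 in the other 3 libraries, and the part of its scale and depth in these counts was not tested. Most of the transcriptome was shared, as 17732 genes reached 1 TPM in all 4 libraries.

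Called genes were shorter than the tested genes, more so among those higher in hooked hairs. The median span on the genome, introns included, was 2140 bp for the higher genes, 2876 bp for the lower genes and 3400 bp for all tested genes. Of genes under 1000 bp, 7.69% were higher and 6.14% lower, and of genes of 8000 bp or more 0.653% and 2.90%. The median absolute log2 change fell over the same classes of span from 1.07 to 0.33, so the spread of all genes moved with span as well. By type in RefSeq, 86.9% of the higher and 90.0% of the lower genes matched a protein-coding gene, near the 87.9% of all tested genes. Long non-coding RNAs made up 1.01% of the higher, 0.759% of the lower and 0.769% of the tested genes, and pseudogenes 0.755%, 1.35% and 1.01%, so both types were near their share among tested genes.

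Both directions were found on all 11 chromosomes. The share of tested genes called lower ran from 4.80% on chromosome 1 to 7.79% on chromosome 4, and the share called higher from 2.62% on chromosome 4 to 4.57% on chromosome 11. Chromosome 4 thus held 95 lower and 32 higher genes among 1220 tested. The number of listed genes within 500000 bp made little difference, with 3.51% to 4.14% called higher and 5.24% to 5.93% called lower over 4 classes of local gene density with near equal numbers of genes. Of 318 tested genes on unplaced scaffolds, 17 were higher and 15 lower, beside 3.80% and 5.66% of all tested genes. Whether the scaffolds differed from those shares was not tested.

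Some called genes stood side by side. Among 20854 pairs of neighbouring tested genes both were called in 241, of which 113 pairs were lower together, 51 higher together and 77 opposite in direction. With 3.80% of all tested genes called higher and 5.66% lower, some pairs of each kind would arise in any order of the genes. Whether neighbours were called together more often than that was not tested. Runs of at least 3 neighbours called in one direction numbered 21, with 52 genes in 16 lower runs and 15 genes in 5 higher runs. Their number was 45 with the AG and BG libraries fitted alone, 12 with a replicate block, 2 without the filter on low values and 8 without AG library 2, and it was 0 where 0 genes were called. Neighbours of one family can have similar sequences and share reads, so the split of reads within a run is uncertain.

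The lower runs with the highest level in AG lay on chromosome 4. The 3 genes between 9431905 and 9502854 summed to 16983 and 7674 TPM in the AG libraries and to 501.7 and 250.1 TPM in the BG libraries. A run of 5 genes between 23117065 and 23321146 summed to 5093 and 2123 TPM in AG and to 181.3 and 68.9 TPM in BG, and one of 4 genes between 22281504 and 22508255 to 3517 and 1498 TPM against 111.6 and 32.8 TPM. The log2 changes within the run of 5 lay between -4.84 and -4.79, so its members moved almost alike. Other runs were more even between replicates. One of them was on chromosome 1, where 3 genes between 21696985 and 22198839 summed to 258.8 and 262.4 TPM in AG and 32.6 and 31.0 TPM in BG, 8.19-fold lower in hooked hairs. Another was on chromosome 7, where 3 genes between 657680 and 677076 summed to 658.7 and 617.3 TPM in AG and 158.9 and 153.5 TPM in BG.

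In the BG libraries the higher runs stayed below the summed level that these 3 runs of chromosome 4 had in AG. Within the BG libraries, the runs on chromosome 3 and scaffold_84 stood above the chromosome 4 runs of 5 and 4 genes. On chromosome 3, between 44716031 and 44741628, Phvul.003G218800.v2.1 and the pair of genes before it summed to 43.3 and 49.7 TPM in AG and to 341.2 and 918.1 TPM in BG. The BG libraries were above AG in each of the 3 genes, and in the first 2 of them BG library 2 was well above BG library 1. On scaffold_84, 3 genes of at most 261 bp, between 14329 and 89747, summed to 73.6 and 151.1 TPM in AG and 487.9 and 737.8 TPM in BG. A run on chromosome 10, of 3 genes between 2485323 and 2509824 summed to 14.0 and 17.7 TPM in AG and 112.3 and 104.1 TPM in BG. On chromosome 11, 3 genes, of which 2 overlap another listed gene, lay between 50239048 and 50263331. They were listed at 0 in AG library 2, summed to 3.46 TPM in AG library 1, and reached 48.9 and 79.2 TPM in BG.

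**Figure D5:**
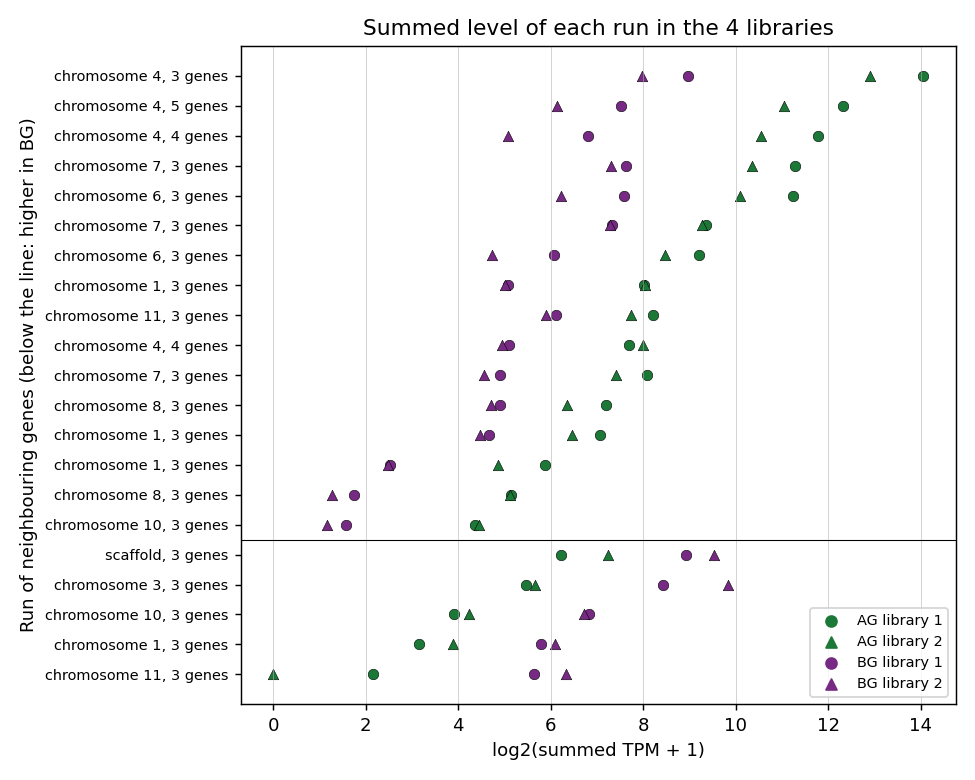
Summed level of each of the 21 runs of neighbouring called genes, as log2(summed TPM + 1), in the AG libraries (green) and BG libraries (purple; circles library 1, triangles library 2). The 16 lower runs stand above the line and the 5 higher runs below it, and in every run the groups do not overlap, as the choice of called genes fixes.

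Neighbours of opposite direction could lie close together. The pair with the largest changes, ranked by the smaller of the 2 and chosen after the values were seen, was on chromosome 6. There Phvul.006G216800.v2.1 (LOC137832905, 30923834 to 30924651, plus strand) ends 256 bp before Phvul.006G216900.v2.1 (LOC137832902, 30924908 to 30928970, minus strand), so the genes point at each other. The former stood at 354 and 149.9 TPM in AG and 20.8 and 11.5 TPM in BG (log2 change -3.81 ± 0.55 SE, limma adjusted p = 0.019). The latter stood at 1.04 and 0.913 TPM in AG and 20.2 and 39.2 TPM in BG (log2 change 3.89 ± 0.45 SE, adjusted p = 0.0161). The former was the higher of the pair in both AG libraries, while in BG library 1 the levels of the pair were nearly equal. The former also closes a lower run of 3 genes, from 30914793, which summed to 2416 and 1087 TPM in AG and 190.1 and 74.2 TPM in BG.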

How the data were processed

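The members and gene lists were chosen with earlier results of these data known. Per the submitters' processing notes, the tools were Trimmomatic, HISAT2 and StringTie. Versions and genome build are not given in the sources used here. A Qiagen RNeasy kit gave the RNA and a SMARTER mRNA-Seq kit the libraries, per the labels' protocols. Per the file headers, each library's table gave TPM, FPKM and coverage as deposited by the authors. Coordinates are those of the files. FPKM, deposited by the authors, was an alternative. The deposited coverage served only for relative depth, and since read counts are unknown no count test was run.

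Values were analysed as log2(TPM + 1), a scale that understates the change of low genes, in limma 3.58.1 (R 4.3.3). The model held 1 mean for each of the 3 groups, with all 6 libraries (3 residual degrees of freedom), with a variance trend and Benjamini-Hochberg adjustment over 20944 genes, two-sided, at 0.05. The fit was checked on simulated data whose noise was independent, normal and, for each gene, equal in all libraries. Unequal spreads between groups and scale differences between libraries were not covered by that check. SD is between libraries. Each SE came from the limma fit, which pooled the spread between libraries within all 3 groups, EPI included. That spread was drawn towards the variance trend over genes. A replicate block, other scalings, filters and pseudocounts, and each library left out were tried. Local gene density counted the listed genes within 500000 bp of a gene's midpoint.

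The RefSeq table (assembly P. vulgaris v2.0) has 34165 genes and contains 0 of the files' IDs. RefSeq symbols were assigned where spans overlapped by at least 50% of both and each was the other's best match, without strand, which the table lacks. This matched 89.8% of tested genes, and 12.2% after a shift of 100000 bp. The symbols carry no product, so the planned gene lists, cell type markers and promoter motifs were not described. The named genes are, by rule, 2 per direction with the largest change, with separated libraries and at least 10 TPM on the higher side, and the 6 with the highest mean level in each group. Runs, neighbours, spans, levels and shares were examined after the data were seen. Figures were drawn with matplotlib 3.10.9.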

Additional observations from a re-analysis of the deposited data

How the results depend on the processing

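The count of called genes moved with the libraries included and with the filter. It was 1980 (795 higher, 1185 lower), 776 (304 higher, 472 lower) without the filter on low values, and 0 in both directions when tested against a fold change of 2 by limma (2188 genes at an unadjusted p under 0.05). Leaving out each library in turn gave 0 to 2441 called genes, 0 to 1162 higher and 0 to 1282 lower, and 12719 to 17868 genes with separated groups. The highest counts came without an EPI library. At least 4-fold calls numbered 0 to 877 higher and 0 to 938 lower over the same fits. With the AG and BG libraries fitted alone, 2442 genes were called (1168 higher, 1274 lower), of which 1790 were among the 1980. Deviations of the same-numbered libraries correlated at 0.0952 for AG and BG, -0.0478 for AG and EPI and 0.245 for BG and EPI. Whether the numbers mark a pairing was not tested. With the replicate number as a block 1500 genes were called by limma. In that fit 6831 genes had an unadjusted p under 0.05, against 6496 in the main fit. Counts under the other pseudocounts, filters, scalings, FPKM and without the variance trend lay between 1598 and 2041. Median-of-ratios scaling with the AG and BG libraries alone, chosen after seeing the data, gave 1767. No called gene changed sign in the 19 alternatives, which is no sign of stability, since the called genes have separated libraries and several settings leave the log2 change as it is. The list medians planned as a result were not run, since no gene could be matched to a list. The number of mapped reads is unknown, so how far depth limits low genes was not determined.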

Other observations

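The EPI libraries enter no comparison here, and their values are given as levels only. Genes called lower in BG than in AG held 14.1% and 13.6% of the listed TPM in EPI libraries 1 and 2, and genes called higher held 2.78% and 2.34%. In the same order of libraries, Phvul.010G129700.v2.1 had levels of 371.2 and 10.7 TPM, and Phvul.003G218800.v2.1 of 18.1 and 0.0342 TPM. Phvul.007G055800.v2.1 stood at 29.8 and 73.7 TPM and Phvul.004G013500.v2.1 at 317.8 and 117.9 TPM. Of the neighbours on chromosome 6, Phvul.006G216800.v2.1 stood at 243.5 and 117.6 TPM and Phvul.006G216900.v2.1 at 6.64 and 4.12 TPM in EPI.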
